A study of Mus musculus with 9 samples.

Results

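Mitochondria carry their own ribosome, which makes the core respiratory chain proteins encoded by mitochondrial DNA. Its RNAs are transcribed inside the organelle, but every one of its proteins is encoded in the nucleus, made by cytosolic ribosomes and imported. The large subunit (Mrpl genes) holds the peptidyl transferase centre and the exit tunnel, and the small subunit (Mrps genes) holds the mRNA and the decoding centre. Some of these proteins descend from those of bacterial ribosomes, and others are found in mitochondria alone.

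All genes of the count table with an Mrpl or Mrps symbol followed by a number were taken, pseudogenes left out, which gave 78 of 55450 genes, 49 of them Mrpl and 29 Mrps. They were measured by RNA-seq in EYFP+ cells sorted from mammary glands of adult nulliparous mice, with 3 libraries in each of 3 groups. Controls carried lsl-EYFP, a Cre-activated reporter, and K8CreERT2, a tamoxifen-inducible Cre driven by the Krt8 promoter of luminal cells. The LATS1/2-KO group also had floxed Lats1 and Lats2, the kinases of the Hippo pathway that restrain YAP and TAZ, and the LATS1/2-Sox9-KO group had floxed Sox9, a transcription factor gene, in addition. All 3 groups, controls included, received 5 daily injections of 2 mg tamoxifen, and cells were sorted 7 days after the last. Total counts were 44167762 to 47003587 in controls, 50508666 to 61745346 in LATS1/2-KO and 55503365 to 61967651 in LATS1/2-Sox9-KO libraries.

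The targeted genes matched the labels only in part. Lats1 had 5672, 5929 and 5941 normalized counts (scaled by library size and TMM factor to a common library size) in controls, 2090.0, 1923 and 2336 in LATS1/2-KO and 2058, 1844 and 1709 in LATS1/2-Sox9-KO libraries, and fell in both. Lats2 did not fall, at 1039, 865 and 1220.0 in controls against 1256, 1434 and 1723, and 1957, 1580.0 and 1240.0, and was called higher in the second comparison (log2 0.61 ± 0.20 SE, adjusted p = 0.024). Sox9 was at 23313, 19948 and 21534 in controls, and was already lower in LATS1/2-KO (7205, 9506 and 12433) than in controls, with a log2 difference between the 2 deletion groups of -0.40 ± 0.19 (SE, adjusted p = 0.25). The counts cover whole genes, including exons outside the deleted part, so they do not check the deletion itself, and the groups are called below "the libraries labelled" with their genotype. Krt8 and Krt18, the luminal keratins, were abundant in all 9 libraries, with Krt8 between 168813 and 461280.0 normalized counts.

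Mitoribosomal protein mRNA was more abundant in both groups of deletion libraries. Summed over the 49 Mrpl genes, the level was 1223, 1229 and 1303 CPM (library-scaled counts, with TMM factors) in controls, 1764, 1963 and 1820.1 in libraries labelled LATS1/2-KO and 2129, 2226 and 2184 in libraries labelled LATS1/2-Sox9-KO. For the 29 Mrps genes it was 617, 615 and 644, then 831, 917 and 887, then 955, 1022 and 994. Every deletion library lay above every control for both subunits, and with TMM factors the 2 deletion groups did not overlap either. Scaled by raw totals alone, the deletion groups did overlap, with Mrpl sums of 1875, 2021 and 1874 against 1993, 2167 and 2163, and Mrps sums of 884, 944 and 913 against 894, 995 and 984, and the Mrpl mean of LATS1/2-Sox9-KO over LATS1/2-KO was 1.10-fold in place of 1.18-fold. The means were 1.48-fold (Mrpl) and 1.40-fold (Mrps) the control mean in libraries labelled LATS1/2-KO and 1.74-fold and 1.58-fold in those labelled LATS1/2-Sox9-KO. In bulk RNA, a change in the share of cells of one type and a change in RNA per cell cannot be told apart.

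**Figure D1:**
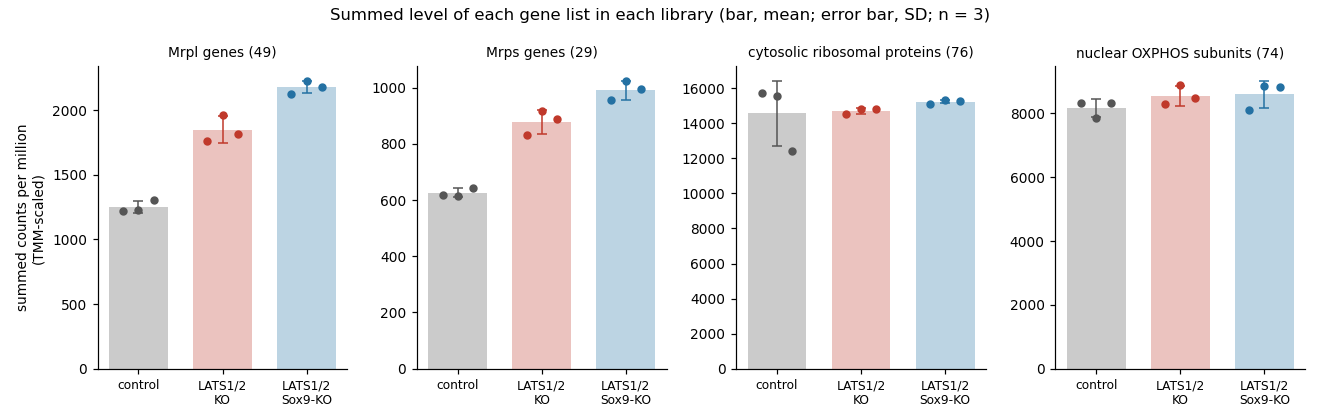
Summed CPM (TMM-scaled, vertical axis) of 4 gene lists in each of the 9 libraries (points), with the group mean (bar) and SD (error bar, n = 3). The Mrpl and Mrps sums of all deletion libraries lie above all controls, and the 2 deletion groups are apart on this TMM scale but overlap when scaled by raw totals. On the TMM scale the sums of cytosolic ribosomal proteins and of nuclear OXPHOS subunits in both deletion groups overlap with the controls. Scaled by raw totals, the OXPHOS sums of LATS1/2-KO (8803, 9139 and 8726) all lie above the controls (8235, 7987 and 8150). The cytosolic sums of LATS1/2-Sox9-KO lie above those of LATS1/2-KO on the TMM scale and below them when scaled by raw totals.

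Promoters were examined because the genes moved together. RefSeq windows (GRCm38.p6) of 300 bases, from 250 before the start to 50 after it, were found for 69 of the 78 members, and letters for known factors of mitochondrial gene control were searched in them on both strands. The ETS letters CCGGAAG, bound by GABPA, were in 26 of the 69 (37.7%), against 9.93% of all 27025 genes with a window and 18.4% of the 11240 protein-coding genes tested. The NRF1 letters GCGCATGC were in 11.6% of members against 3.05% and 5.53%, and the YY1 letters AAGATGGCG in 11.6% against 1.64% and 3.21%. The SP letters GGGCGG were in 49.3% of members against 38.2% and 66.2%, the E-box CACGTG of the MYC family in 7.25% against 8.09% and 11.0%, and the TEAD letters GGAATG, of the factors that carry YAP and TAZ to DNA, in 11.6% against 16.6% and 14.7%. None of these motifs contains another. A match is only a run of letters and not a bound site.

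The windows of 6 members are shown, those with the highest fold changes in libraries labelled LATS1/2-KO (Mrpl22, Mrpl33, Mrps22), members that start head to head with another gene (Mrps18b with Ppp1r10, Mrps11 with Mrpl46) and the member that differed most between the 2 deletions (Mrpl14). Capitals mark the ETS, NRF1 and YY1 letters, on either strand, and Mrpl14 has none of them. They lie at chr11:58171414-58171713 (Mrpl22, plus strand), chr5:31613701-31614000 (Mrpl33, plus), chr9:98601630-98601929 (Mrps22, minus), chr17:35916391-35916690 (Mrps18b, minus), chr7:78782881-78783180 (Mrps11, plus) and chr17:45686099-45686398 (Mrpl14, plus).
Mrpl22: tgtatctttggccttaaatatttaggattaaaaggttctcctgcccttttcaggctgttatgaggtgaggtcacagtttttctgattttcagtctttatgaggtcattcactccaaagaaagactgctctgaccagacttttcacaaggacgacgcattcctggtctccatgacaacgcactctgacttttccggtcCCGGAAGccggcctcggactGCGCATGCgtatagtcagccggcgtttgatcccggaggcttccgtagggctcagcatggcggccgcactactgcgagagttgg
Mrpl33: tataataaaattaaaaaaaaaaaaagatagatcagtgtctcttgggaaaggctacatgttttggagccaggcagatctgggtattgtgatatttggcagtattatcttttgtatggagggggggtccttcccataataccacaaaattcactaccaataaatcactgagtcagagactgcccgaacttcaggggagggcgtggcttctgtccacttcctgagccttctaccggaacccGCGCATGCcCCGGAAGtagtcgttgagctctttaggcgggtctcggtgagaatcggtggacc
Mrps22: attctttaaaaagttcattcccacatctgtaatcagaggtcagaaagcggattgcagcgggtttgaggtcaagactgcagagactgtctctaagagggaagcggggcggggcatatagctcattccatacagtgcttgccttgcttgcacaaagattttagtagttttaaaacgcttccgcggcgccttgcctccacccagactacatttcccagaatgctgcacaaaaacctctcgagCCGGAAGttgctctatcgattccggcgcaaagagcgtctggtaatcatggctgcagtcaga
Mrps18b: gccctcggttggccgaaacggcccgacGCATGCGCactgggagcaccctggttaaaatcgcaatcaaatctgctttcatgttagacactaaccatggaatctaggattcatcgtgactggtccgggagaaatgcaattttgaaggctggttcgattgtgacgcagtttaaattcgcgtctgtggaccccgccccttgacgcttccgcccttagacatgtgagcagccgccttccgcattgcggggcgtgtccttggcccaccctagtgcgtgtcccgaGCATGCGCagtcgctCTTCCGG
Mrps11: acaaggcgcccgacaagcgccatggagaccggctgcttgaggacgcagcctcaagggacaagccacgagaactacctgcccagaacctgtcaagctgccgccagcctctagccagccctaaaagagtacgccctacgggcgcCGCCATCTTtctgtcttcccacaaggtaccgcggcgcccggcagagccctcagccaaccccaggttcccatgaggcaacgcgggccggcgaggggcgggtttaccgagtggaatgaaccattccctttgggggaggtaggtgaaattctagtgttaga
Mrpl14: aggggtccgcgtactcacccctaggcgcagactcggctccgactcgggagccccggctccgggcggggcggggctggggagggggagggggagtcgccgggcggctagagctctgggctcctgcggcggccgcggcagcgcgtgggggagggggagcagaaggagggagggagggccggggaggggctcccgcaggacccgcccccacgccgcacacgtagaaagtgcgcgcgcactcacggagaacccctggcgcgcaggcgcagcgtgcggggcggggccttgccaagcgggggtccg

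In libraries labelled LATS1/2-KO against controls, 35 of the 49 Mrpl genes were higher and 3 were lower (edgeR quasi-likelihood test over 19357 genes, adjusted p at most 0.05), where 28.7% of all genes tested were higher and 27.1% lower. The median log2 fold change of the Mrpl genes was 0.73, beside 0.04 over all genes. Mrpl22, whose bacterial counterpart lines the exit tunnel, had the highest fold change: 284, 276 and 385 normalized counts in controls, 697, 970.0 and 805 in libraries labelled LATS1/2-KO, a 2.62-fold difference (log2 1.39 ± 0.19 SE, adjusted p = 0.00017). The lowest deletion library was well above the highest control. Mrpl33, a small protein of bacterial descent, went from 1639, 1452 and 1591 to 3305, 4369 and 3861 (2.46-fold, adjusted p = 4.6e-05). Mrpl35 went from 638, 787 and 768 to 1369, 2116 and 1742, and Mrpl1, a protein of the mobile L1 stalk, from 401, 458 and 592 to 1079, 1221 and 1127. Mrpl46, an addition of mitochondria, went from 589, 662 and 770.0 to 1495, 1723 and 1513 (2.34-fold, adjusted p = 4.9e-05). None of these 5 genes overlapped between the groups. They were named for their fold changes in this comparison, so the separation follows in part from the choice. Of all genes tested, 31.3% were higher with no overlap.

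Mrpl12, the protein of the L7/L12 stalk that also binds the mitochondrial RNA polymerase, rose from 1671, 1614 and 1542 to 3033, 3192 and 3482 (2.01-fold, log2 1.01 ± 0.10 SE, adjusted p = 2.3e-05). Mrpl36, whose bacterial counterpart is among the smallest ribosomal proteins, rose from 1228, 1144 and 1099 to 2044, 1659 and 1602 (1.53-fold, adjusted p = 0.0024). Mrpl58, a peptidyl-tRNA hydrolase built into the large subunit, was not called, with 1569, 1507 and 1949 in controls and 1700.0, 1970.0 and 1687 (log2 0.09 ± 0.13 SE, adjusted p = 0.57). With the requirement of more than a 2-fold change, 15 Mrpl genes stayed higher and 1 lower, where 17.1% of all genes were higher and 17.5% lower.

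The 3 Mrpl genes that were lower were Mrpl23, Mrpl38 and Mrpl24. Mrpl23, a protein at the tunnel exit, had few counts, at 130.0, 139 and 144 in controls and 31.1, 69.5 and 69.3 in libraries labelled LATS1/2-KO (log2 -1.28 ± 0.35 SE, adjusted p = 0.011), and RefSeq lists a pseudogene of it that may share its reads. Mrpl38, an addition of mitochondria, had 3171, 3095 and 3431 against 2430.0, 2154 and 2219 (log2 -0.51 ± 0.13 SE, adjusted p = 0.0086). Its call was lost with the GC offsets described below, at log2 0.03 (adjusted p = 0.87). Mrpl24, the most abundant Mrpl mRNA per kilobase of exon in controls, had 5420.0, 5534 and 5825 against 5356, 3467 and 3343 (log2 -0.46 ± 0.17 SE, adjusted p = 0.037). Its replicate 1 was near the controls and the other 2 libraries were far below, 26.3% of its exon bases overlap the opposite-strand gene Rrnad1, and the call was lost on leaving out any 1 control. Mrpl14 (2123, 1949 and 2123 against 2157, 1353 and 1440.0) and Mrpl10, the base of the L7/L12 stalk (2084, 2182 and 2289 against 2173, 1733 and 1523), showed the same split and were not called (adjusted p = 0.13 and 0.12). With the first LATS1/2-KO library left out both were called lower, at log2 -0.56 and -0.42. In that fit 5 members in place of 3 were lower, and 5505 of 20199 genes tested.

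Of the 29 Mrps genes, 18 were higher and none was lower in libraries labelled LATS1/2-KO (0 of 29), where 28.7% and 27.1% of all genes were, with a median log2 fold change of 0.50. More than a 2-fold change was found for 4 of the 29, a smaller share than the 17.1% of all genes. Mrps22, a mitochondria-specific protein of the small subunit, went from 462, 573 and 559 normalized counts to 1439, 1372 and 1328 (2.6-fold, log2 1.38 ± 0.12 SE, adjusted p = 1.5e-05). Mrps2 went from 572, 612 and 617 to 1250.0, 1597 and 1529 (2.43-fold, adjusted p = 3.9e-05), and Mrps31, an addition of mitochondria, from 476, 555 and 515 to 871, 1307 and 1070.0 (2.10-fold, adjusted p = 0.0004). Mrps12, the S12 protein of the decoding centre, rose from 1274, 1328 and 1313 to 2420.0, 2298 and 2439 (1.83-fold, adjusted p = 0.00013). In all 4, no library labelled LATS1/2-KO reached down to a control, where 31.3% of all genes tested were higher with no overlap. Mrps22, Mrps2 and Mrps31 were named for their fold changes in this comparison, so their separation follows in part from the choice. At the other end stood Mrps18a, Mrps21, Mrps6, Mrps34 and Mrps15, with log2 fold changes of -0.19, -0.14, -0.10, -0.04 and -0.03, none called (adjusted p = 0.2, 0.29, 0.55, 0.8 and 0.83). Mrps34 shares 63.4% of its exon bases with Mapk8ip3 on the opposite strand and 37.0% with Nme3 on the same strand, so its counts are uncertain. Mrps21 and Mrps6 had 1798, 1735 and 1851, and 1657, 1831 and 1975, in controls, and overlapped with the deletion libraries at 1769, 1558 and 1553, and 1832, 1421 and 1851.

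The 3 paralogs of bacterial S18 were read one by one, and differences between them were not tested. Mrps18c rose from 716, 699 and 717 normalized counts to 1162, 1846 and 1628 (2.18-fold, adjusted p = 0.00038). Mrps18b rose from 764, 771 and 758 to 1175, 1666 and 1598 (1.94-fold, adjusted p = 0.00035). Mrps18a, which sits in the large subunit, had 1884, 1885 and 1861 against 1804, 1686 and 1450.0 and was not called. In libraries labelled LATS1/2-Sox9-KO the 3 had 1347, 1615 and 1596 (Mrps18c, adjusted p = 0.00039), 1937, 2155 and 1975 (Mrps18b, adjusted p = 2.7e-05) and 2310.0, 2173 and 1959 (Mrps18a, adjusted p = 0.19). With the GC offsets described below, Mrps18a was at log2 0.21 and not called in libraries labelled LATS1/2-KO. In those labelled LATS1/2-Sox9-KO the offsets made it a call of higher (log2 0.57, adjusted p = 0.0029). Mrps30, also a large subunit protein in spite of its name, rose from 1189, 1160.0 and 1170.0 to 1951, 2336 and 2416 (1.90-fold, adjusted p = 0.00011). Mrps36, now known as a part of the oxoglutarate dehydrogenase complex rather than of the ribosome, had 138, 90.7 and 147 against 166, 186 and 167 (adjusted p = 0.13), and has pseudogenes that may share its reads. The members were also sorted by the subunit in which they sit instead of by name. This gave 36 of 51 higher and 3 lower in the large subunit (median 0.73). In the small subunit 17 of 26 were higher and 0 lower (median 0.54). Of members with a bacterial homologue 36 of 48 were higher and 2 lower (median 0.66). Of mitochondria-specific members 17 of 30 were higher and 1 lower (median 0.51), and the difference was not tested. Over all genes tested, 28.7% were higher and 27.1% lower.

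**Figure D2:**
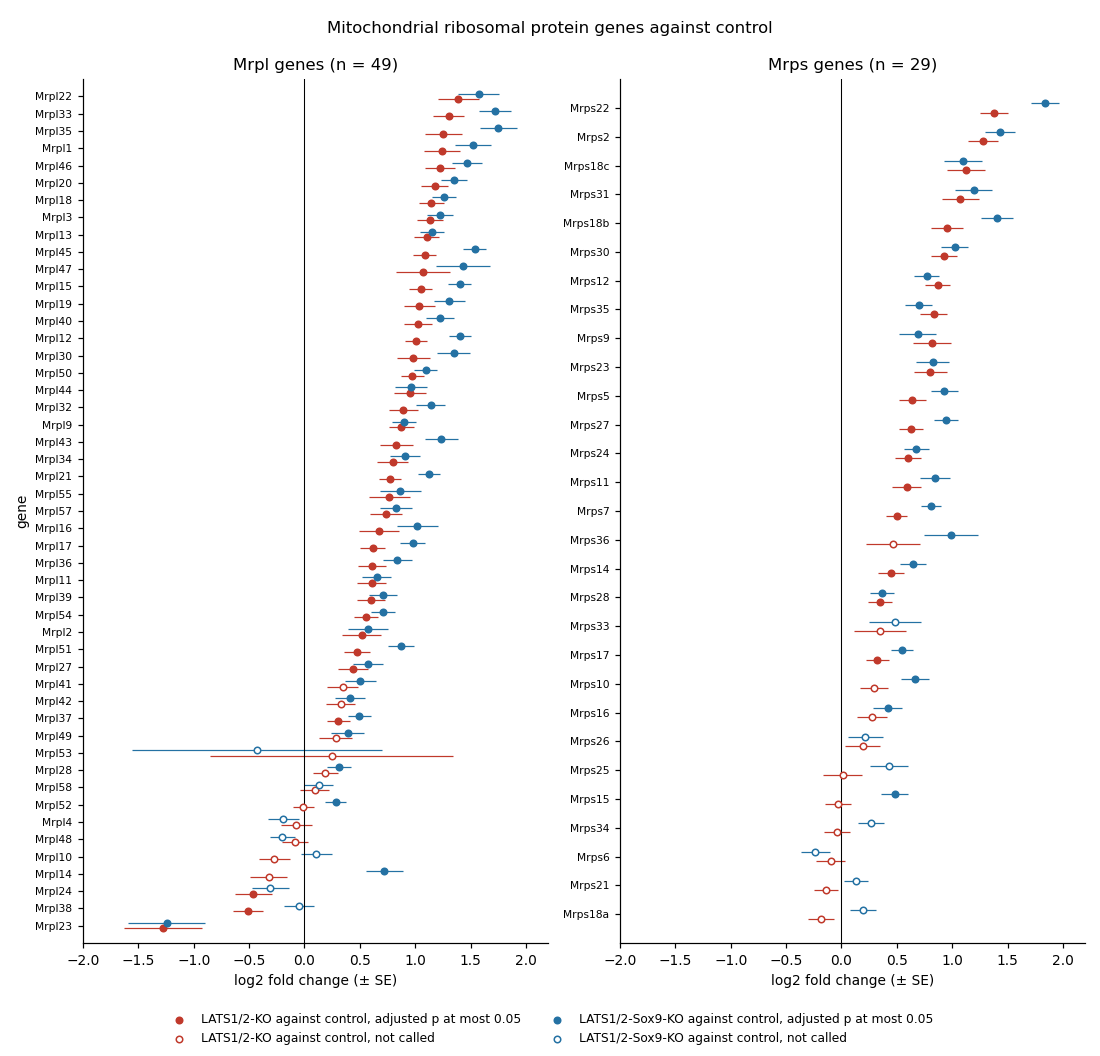
Log2 fold change against control (horizontal axis, ± SE) of the 49 Mrpl and 29 Mrps genes, ordered by the LATS1/2-KO value, in libraries labelled LATS1/2-KO (red) and LATS1/2-Sox9-KO (blue), with filled points at adjusted p at most 0.05. In red 53 of the 78 points are filled to the right of zero and 3 to the left, and in blue 63 and 1.

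Counting all 78 members, 53 (67.9%) were higher in libraries labelled LATS1/2-KO, and in 56 all 3 of these libraries lay above all 3 controls, where 31.3% of all genes tested did. Of the 45 members whose exons overlap no exon of another gene, 31 were higher and 2 lower, with a median of 0.61. Of all genes tested, 28.7% were higher and 27.1% lower. The 22 members not called included Mrpl53, which had 0 to 12.5 normalized counts in controls and shares 88.0% of its exon bases with another annotated gene. Levels per kilobase of exon in controls ran from 9.67 (Mrpl53) to 2480.2 (Mrpl24), with a median of 474. The most abundant after Mrpl24 were Mrpl14 (2176) and Mrpl52 (2125) among Mrpl genes, and Mrps21 (2428), Mrps28 (1385) and Mrps12 (1255) among Mrps genes. Of these 6, Mrps28 and Mrps12 were called higher and Mrpl24 lower. Within a group the median coefficient of variation of the members was 6.28% in controls, 10.6% in libraries labelled LATS1/2-KO and 5.69% in those labelled LATS1/2-Sox9-KO. The highest was that of Mrpl53 in each group, at 87.6%, 121% and 34.0%.

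The size of the change went with base composition. The GC content of the members' transcripts ran from 39.8% to 60.8%, and over the 78 members the Spearman correlation of GC content with the log2 fold change in libraries labelled LATS1/2-KO was -0.40, where it was -0.24 over 19328 genes tested. These points share their libraries. Mrpl38 (58.6% GC), Mrpl14 (59.0%) and Mrps34 (60.2%) are GC-rich, and Mrpl1 (41.1%) is GC-poor. With offsets that remove a smooth GC trend from each library, 55 members were higher and 3 lower, where 5420 of 19357 genes tested were higher and 5043 lower. Of the 55, 49 were among the 53, but single members moved. Mrpl38 went from a call of lower to log2 0.03 (adjusted p = 0.87), Mrpl14 to 0.22 and Mrps34 to 0.51 (adjusted p = 0.012, called higher), Mrpl12 to 1.46 and Mrps12 to 1.36, while Mrpl1 fell to 0.81. After the offsets the correlation with GC content was 0.27. Mrpl22 was at 1.41, and the lower members were Mrpl24 (log2 -0.60), Mrpl23 (-0.95) and Mrpl48 (-0.33). The medians of the Mrpl and Mrps genes were 0.70 and 0.51 with the offsets. The order of single members therefore depends on this choice, and the part of GC content in it was not tested further.

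**Figure D3:**
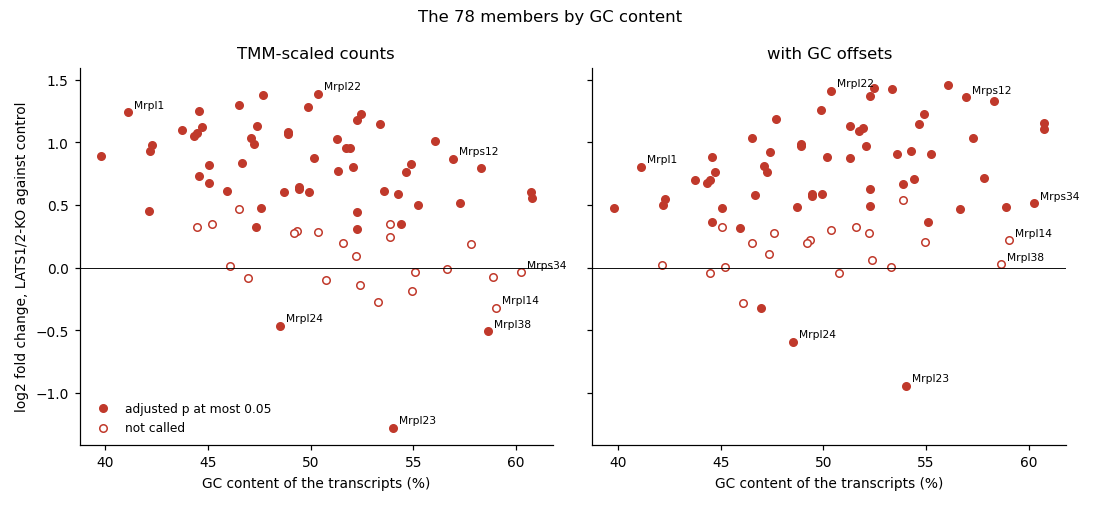
Log2 fold change of the 78 members in libraries labelled LATS1/2-KO against control (vertical axis) by the GC content of their transcripts in percent (horizontal axis), from TMM-scaled counts (left) and with GC offsets (right), with filled points at adjusted p at most 0.05. The GC-rich Mrpl38, Mrpl14 and Mrps34 move from below zero to above it, while Mrpl22 stays high and Mrpl23 and Mrpl24 stay low.

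Libraries labelled LATS1/2-Sox9-KO were compared with the same controls, so this comparison shares them. There 41 of 49 Mrpl genes were higher and 1 was lower, and 22 of 29 Mrps genes were higher and 0 lower, where 29.3% of all genes tested were higher and 28.7% lower. The median log2 fold changes were 0.90 and 0.69, beside 0.01 over all genes. More than a 2-fold change was found for 27 higher members and 1 lower (17.8% and 19.6% of all genes), and in 68 members all libraries lay above all controls (34.9% of all genes). Mrps22 had the highest fold change, at 1890.0, 1941 and 1867 normalized counts (3.58-fold over controls, log2 1.84 ± 0.13 SE, adjusted p = 2.5e-06). Mrpl35 had 2377, 2584 and 2426 (3.37-fold, adjusted p = 1.6e-05) and Mrpl33 had 4375, 5828 and 5211 (3.29-fold, adjusted p = 7.3e-06). The one lower member was Mrpl23 again, at 70.6, 53.8 and 50.1 (log2 -1.24 ± 0.35 SE, adjusted p = 0.012). Mrpl24 (4740.0, 4392 and 4409, adjusted p = 0.14) and Mrpl53 (4.6, 8.0 and 4.6, adjusted p = 0.77) were next lowest and not called. Mrpl58 was not called here either (adjusted p = 0.43), and Mrps36 was called higher at 219, 280.0 and 245 (adjusted p = 0.0058).

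The libraries of the 2 deletion groups, whose labels differ in floxed Sox9 but whose Sox9 counts were not called different, were also compared directly. The test called 4 members higher and none lower (0 of 78) in libraries labelled LATS1/2-Sox9-KO, where 3.12% of all genes tested were higher and 3.33% lower. Mrpl14, a protein at the subunit interface, had 3399, 3304 and 3503 normalized counts there against 2157, 1353 and 1440.0 (2.06-fold, log2 1.04 ± 0.17 SE, adjusted p = 0.01), the only member past a 2-fold change (1.55% of all genes). Every library labelled LATS1/2-Sox9-KO was above every other library for Mrpl14. Mrps15, a protein that binds the small subunit rRNA, had 1634, 1924 and 1825 against 1387, 1182 and 1206 (1.43-fold, adjusted p = 0.035), with controls at 1297, 1331 and 1233. Mrpl45, which in structures lies beside the tunnel exit at the inner membrane, had 3160.0, 3332 and 3475 against 2461, 2458 and 2371 (1.37-fold, adjusted p = 0.033), and Mrpl12 had 4143, 4345 and 4296 against 3033, 3192 and 3482 (1.32-fold, adjusted p = 0.041). Mrpl45 and Mrpl12 were stepped over the 3 groups, while Mrpl14 and Mrps15 were called against controls in libraries labelled LATS1/2-Sox9-KO and not in those labelled LATS1/2-KO. Mrps22 and Mrpl21 came next and were not called (adjusted p = 0.052 and 0.065).

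**Figure D4:**
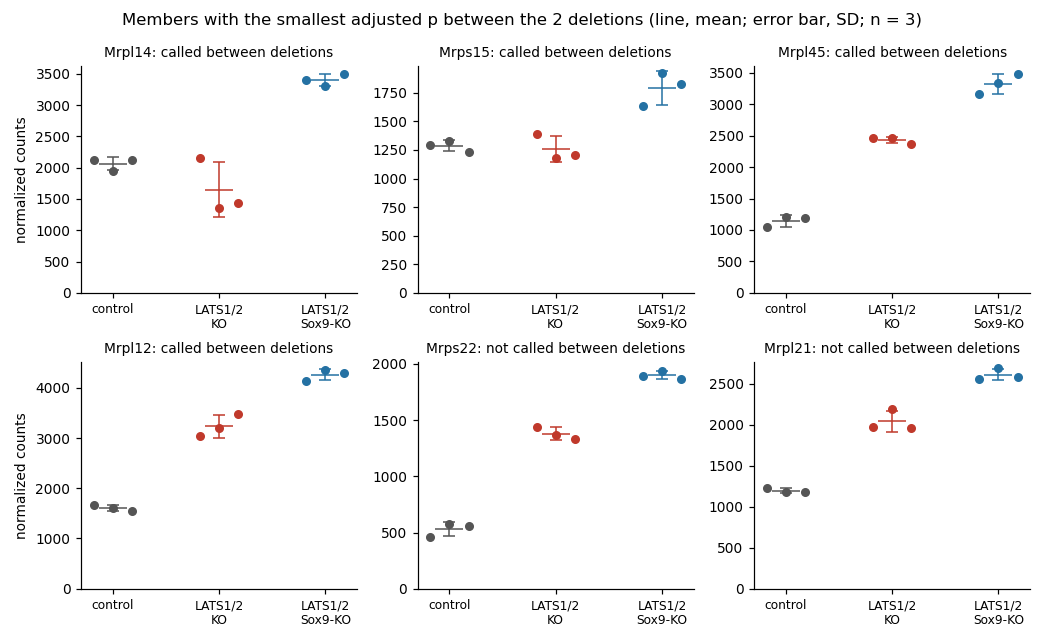
Normalized counts (vertical axis) of the 6 members with the smallest adjusted p between the 2 deletion groups in each of the 9 libraries (points), with the group mean (line) and SD (error bar, n = 3). For all 6, the 3 libraries labelled LATS1/2-Sox9-KO lie above the 3 labelled LATS1/2-KO, as they do for 14.6% of all genes tested. The 6 were chosen by this same comparison.

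Small differences in one direction were common in this comparison. The log2 fold change was positive for 70 of 78 members (9390 of 19357 genes tested), with a median of 0.18 beside -0.02 over all genes, and in 33 members the 3 libraries labelled LATS1/2-Sox9-KO lay above the 3 labelled LATS1/2-KO (14.6% of all genes). With raw library sizes in place of TMM scaling the 2 medians were 0.08 and -0.12, so both medians moved down. The calls rest on few libraries: 9 members were called higher with the first LATS1/2-KO library left out (1012 of 20199 genes tested), and 1 with replicate 3 of that group, replicate 2 or 3 of LATS1/2-Sox9-KO or control replicate 2 left out (155 to 410 genes). DESeq2 called 13 members, and 1174 of 18604 genes, higher.

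The same ribosome has 5 listed proteins with other names. Ptcd3, a pentatricopeptide protein of the small subunit, rose from 1548, 1560.0 and 1390.0 normalized counts to 3573, 2868 and 2523 in libraries labelled LATS1/2-KO (1.99-fold, adjusted p = 0.00017), and Chchd1 rose from 1211, 1136 and 1159 to 2104, 1950.0 and 1856 (1.69-fold, adjusted p = 0.00021). Dap3, a GTP-binding protein of the small subunit, was not called, at 4383, 3869 and 4182 against 3856, 3984 and 3852 (log2 -0.09 ± 0.09 SE, adjusted p = 0.43). Aurkaip1 and Gadd45gip1 were not called (adjusted p = 0.35 and 0.85). In libraries labelled LATS1/2-Sox9-KO, Aurkaip1 was called as well (1.29-fold, adjusted p = 0.012), which made 3 of 5. Over all genes tested, 28.7% were higher in libraries labelled LATS1/2-KO and 29.3% in those labelled LATS1/2-Sox9-KO.

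The rest of the mitochondrial translation machinery was counted in the same way, where 28.7% of all genes tested were higher and 27.1% lower in libraries labelled LATS1/2-KO, and 29.3% and 28.7% in those labelled LATS1/2-Sox9-KO. With so few genes in a list, several of its shares lie near these. Of 12 translation factors 5 were higher and 1 lower in libraries labelled LATS1/2-KO (median log2 0.33): initiation factor Mtif3 rose 2.03-fold (adjusted p = 0.00087), and 2810006K23Rik, of the release factor family, was at 0.528-fold (adjusted p = 0.038). Of 27 genes for assembly and rRNA modification 10 were higher and 2 lower (median 0.40), from Grsf1, an RNA-binding protein of mitochondrial RNA granules, at 3.17-fold (adjusted p = 5.3e-05) to Mettl15, a methyltransferase of the small subunit rRNA, at 0.582-fold (adjusted p = 0.023). Of 17 mitochondrial aminoacyl-tRNA synthetases 4 were higher and 7 lower (median -0.17). Mars2, which charges methionine tRNA, was 3.43-fold higher (370.0, 357 and 345 against 1012, 1414 and 1251, adjusted p = 1.1e-05), and Vars2, which charges valine tRNA, fell to 0.359-fold (1950.0, 2152 and 1706 against 706, 622 and 756, adjusted p = 2.8e-05), with transcript GC contents of 38.8% and 59.6%. Of 11 genes of mitochondrial DNA maintenance and transcription 6 were higher and 3 lower (median 0.36), from the elongation factor Tefm (2.48-fold, adjusted p = 0.00092) to Polg2, the accessory subunit of the mitochondrial DNA polymerase (0.469-fold, adjusted p = 0.033). The counts in libraries labelled LATS1/2-Sox9-KO were 6 higher and 0 lower of 12, 13 and 1 of 27, 5 and 5 of 17, and 6 and 3 of 11.

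Of 10 regulators of mitochondrial biogenesis 3 were higher and 3 lower in libraries labelled LATS1/2-KO (median -0.31), shares near those of all genes tested (28.7% and 27.1%). Gabpa, the DNA-binding subunit of GABP, rose from 2612, 2608 and 2936 to 4631, 6149 and 4878 normalized counts (1.92-fold, adjusted p = 0.00014), and Nrf1 rose from 2281, 1845 and 2172 to 2504, 2860.0 and 2813 (1.30-fold, adjusted p = 0.017). Mycn, at 1.2 to 4.5 in controls and 25.4 to 42.1 in libraries labelled LATS1/2-KO, was also called (adjusted p = 0.0013), while Myc and Yy1 were not (adjusted p = 0.32 and 0.14). The lowest was Ppargc1b, a coactivator of mitochondrial gene expression, with 179, 105 and 175 against 50.1, 37.3 and 72.0 (0.347-fold, adjusted p = 0.0057).

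The cytosolic ribosome and the respiratory chain, the mitoribosome's counterpart and its client, were measured beside it. Of 76 cytosolic ribosomal protein genes 9 were higher and 7 lower in libraries labelled LATS1/2-KO (median log2 -0.01), from Rpl27 (2.01-fold, adjusted p = 0.00079) to Rpl27a (0.548-fold, adjusted p = 0.00041). These genes have many processed pseudogenes, which makes single ones uncertain. Their summed level was 15727, 15559.9 and 12429 CPM in controls and 14518, 14809 and 14804, a range within that of the controls, in which replicate 3 was low. Of 74 nuclear genes for OXPHOS subunits 22 were higher and 13 lower (median 0.07), from Ndufb6 (2.02-fold, adjusted p = 5.2e-05) to Ndufb2 (0.568-fold, adjusted p = 0.0021). The summed OXPHOS level of these libraries overlapped with the controls on the TMM scale. Scaled by raw totals it was 8803, 9139 and 8726, above the controls at 8235, 7987 and 8150. The share higher was 29.7% for OXPHOS genes, near the 28.7% of all genes tested, and 11.8% for cytosolic ribosomal protein genes. In libraries labelled LATS1/2-Sox9-KO the counts were 13 higher and 5 lower of 76, and 22 and 12 of 74. The genes of the respiratory chain that the mitoribosome itself translates were not analysed here.

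Many members start close to another gene on the opposite strand. A protein-coding gene started head to head within 1000 bases for 33 of 78 members (42.3%), against 15.1% of 14517 protein-coding genes tested. The 33 partners, in which Mrpl46 and Mrps11 count for each other, had 16 higher and 7 lower in libraries labelled LATS1/2-KO, where 28.7% of all genes tested were higher and 27.1% lower. Members with a partner were higher in 27 of 33 (median 0.73) and members without one in 26 of 45 (median 0.60), a difference that was not tested. Mrpl46 and Mrps11, one gene of each subunit, share a start region, and both rose (2.34-fold and 1.5-fold). Mrps18b starts 45 bases from Ppp1r10, a regulator of protein phosphatase 1, which fell from 12828, 15276 and 13803 normalized counts to 4687, 3107 and 3945 (0.28-fold, adjusted p = 1.5e-05) while Mrps18b rose. In 4 more pairs the member was higher and the partner lower. Mrps18c and its partner Helq, a DNA helicase gene, both rose (Helq 1.91-fold, adjusted p = 0.00059), as did Mrpl36 and Ndufs6, a complex I gene (1.64-fold, adjusted p = 0.00017). Mrps12 rose beside Sars2, the mitochondrial seryl-tRNA synthetase gene, which was not called (625, 668 and 611 against 560.0, 780.0 and 866, adjusted p = 0.33). Mrpl14 and its partner Tmem63b were both uncalled (adjusted p = 0.5 for Tmem63b). Eme2, the partner of Mrps34, fell from 580.0, 643 and 708 to 343, 248 and 257 (0.439-fold, adjusted p = 0.0004). Lrrc46 beside Mrpl10, B430218F22Rik beside Mrps30 and Ighmbp2 beside Mrpl21 were not called (adjusted p = 0.64, 0.88 and 0.2). Some of these partners overlap the member at the start, and whether reads were assigned by strand is uncertain, so shared reads there cannot be told apart.

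**Figure D5:**
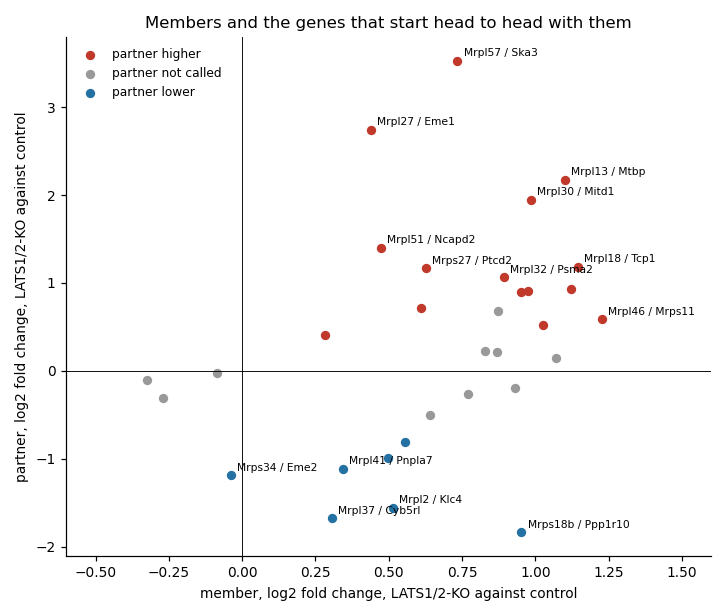
Log2 fold change in libraries labelled LATS1/2-KO against control of the members (horizontal axis) and of the protein-coding genes that start head to head with them (vertical axis), coloured by the call of the partner. Higher members have partners that are higher (Mrpl57 with Ska3, Mrpl13 with Mtbp), not called, or lower (Mrps18b with Ppp1r10, Mrpl2 with Klc4).

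Within the members, the searched letters did not all sort with the calls. The ETS letters were in 17 of the 47 higher members with a window and in 9 of the other 22, the NRF1 letters in 7 and 1, the YY1 letters in 6 and 2 and the SP letters in 23 and 11. The TEAD letters were in 8 of 47 and 0 of 22, and the E-box in 5 and 0. For the TEAD letters and the E-box, the shares of higher members were near those of all protein-coding genes tested, 14.7% and 11.0%. The ETS, NRF1, YY1 and SP letters were in 18.4%, 5.53%, 3.21% and 66.2% of the protein-coding genes tested. All of these are counts with no test.

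Other properties of the libraries moved with the same groups, and their part in these results was not tested. Over all genes tested, 28.7% were higher and 27.1% lower in libraries labelled LATS1/2-KO, and 29.3% and 28.7% in those labelled LATS1/2-Sox9-KO. The share higher in libraries labelled LATS1/2-KO was 28.6% for luminal and 42.9% for basal markers, each from 7 genes. All 10 proliferation markers were higher in both comparisons with controls, and their summed level was 173, 242 and 137 CPM in controls, 895, 918 and 979 in libraries labelled LATS1/2-KO and 869, 941 and 1010.4 in those labelled LATS1/2-Sox9-KO, with Mki67 at 409, 896 and 365, then 10601, 9148 and 11317, then 8354, 8568 and 9292 normalized counts. The highest fold change was that of the mitotic cyclin gene Ccnb1 (57.3-fold) and the lowest that of Pcna, the replication clamp (1.73-fold). Of 7 luminal markers 2 were higher and 3 lower in libraries labelled LATS1/2-KO, with a sum of 17895, 17375 and 19572 in controls, 19119, 19050.3 and 19663, and 32292, 29133 and 26988, with Krt18 the most abundant. Among those called, Krt18 was the highest (1.64-fold, adjusted p = 0.00034) and Krt19 the lowest (0.49-fold, adjusted p = 0.0042). Of 7 basal markers 3 were higher and 2 lower, and their sum went from 75.9, 98.5 and 88.3 to 4881, 2922 and 2827, and 2263, 4611 and 6616, which in the deletion libraries was nearly all Krt14, while the basal master regulator Trp63 fell from 373, 2153 and 2133 normalized counts to 70.2, 40.7 and 53.8.

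Markers of cells outside the epithelium were low beside those of luminal cells. In libraries labelled LATS1/2-KO 28.7% of all genes tested were higher and 27.1% lower. The shares higher there were 14.3% for immune, 16.7% for endothelial, 50% for fibroblast and 80% for adipocyte markers, each from few genes. Of 7 immune markers tested 1 was higher in libraries labelled LATS1/2-KO, Csf1r, and the sum was 21.6, 15.5 and 14.1 CPM in controls, 82.0, 57.8 and 39.2, and 65.6, 70.1 and 89.4, with the T cell gene Cd3e at 0 in all libraries. The adipocyte sum, mostly Fabp4, was 5.06, 3.41 and 5.36, then 9.0, 64.9 and 30.4, then 1.6, 22.4 and 20.01, with 4 of 5 markers higher in libraries labelled LATS1/2-KO, the highest of them Lep, at 0 in all controls, and the lowest Fabp4 (6.06-fold, adjusted p = 0.03). The fibroblast sum was 43.4, 77.5 and 173, then 156, 41.9 and 50.9, then 43.4, 57.1 and 112, with 3 of 6 higher, led by the collagen gene Col3a1 (8.79-fold, adjusted p = 0.0065), and Dcn lower (0.212-fold, adjusted p = 0.043). The endothelial sum stayed between 4.98 and 14.8 (1 of 6 higher, Kdr). Of the erythroid markers, 1 of the 2 tested was lower in libraries labelled LATS1/2-KO, Alas2, and both were in those labelled LATS1/2-Sox9-KO. The erythroid sum was 2.22 to 2.70 in controls and 0 to 1.62 in the deletion libraries, lower in every one of them. The immune sum was higher in every deletion library than in every control, as the mitoribosomal sums were, and the adipocyte sum was higher in every library labelled LATS1/2-KO than in every control. The fibroblast and endothelial sums overlapped between the groups.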

How the data were processed

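RNA-seq counts per gene were deposited for 9 libraries in one table of 55450 genes. Per the labels and the study's methods, the authors prepared TruSeq RNA libraries, checked them with FastQC 0.11.7, aligned to mm10 with STAR 2.6.0c and counted uniquely aligned pairs of the same strand on Ensembl 100 genes with featureCounts (Subread 1.6.2). Genes were filtered (filterByExpr, 19357 kept), TMM-scaled and tested with edgeR 4.0.16 (R 4.3.3) by the quasi-likelihood test over all 9 libraries, with Benjamini-Hochberg adjustment over all genes tested and calls at adjusted p of at most 0.05. DESeq2 1.42.0 served as an alternative. Normalized counts are TMM-scaled to the mean effective library size. Positions, exon overlaps and GC content came from GENCODE M21 and promoters from RefSeq.

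The members and gene lists were chosen with earlier results of these data known. Named members are the 5 highest and 5 lowest of each subunit in LATS1/2-KO against control, the 3 highest and 3 lowest in LATS1/2-Sox9-KO against control, the 6 with the smallest adjusted p between the deletions, the 3 most abundant per length of each subunit, and members chosen for their role. From every other list the highest and lowest genes called were named. Head-to-head partners of named members were named too, and other genes in the text were chosen after their values were seen. The labels do not say that libraries came from separate mice, so p-values measure the spread between libraries. On simulated counts for LATS1/2-KO against control (18835 genes), 100 well-counted genes were given a 2-fold and 100 a 4-fold change. The test recovered 58% of the 2-fold and 92% of the 4-fold changes with 14 false calls. Far more genes were called in the data (5550 higher and 5238 lower), so these rates need not hold there. Replicates differed beyond sampling noise, so none was counted as a repeat. Other normalizations, filters, GC offsets, a replicate block and leaving out each library were tried. Genes of mitochondrial DNA were not analysed here.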

Additional observations from a re-analysis of the deposited data

Results flagged for a closer look

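The fold change against control differed between the 2 deletions, by the direct edgeR comparison of the deletion libraries (adjusted p over all genes tested), for 4 of 78 members (5.13%), all higher. Of all genes tested, 3.12% were higher and 3.33% lower. In either direction, 74 of 78 members and 18110 of 19357 genes were not called, so the members did not differ more often than genes in general. The log2 difference, LATS1/2-Sox9-KO minus LATS1/2-KO, was 1.04 for Mrpl14, 0.51 for Mrps15, 0.45 for Mrpl45 and 0.40 for Mrpl12. For each, all 3 libraries labelled LATS1/2-Sox9-KO lay above the 3 labelled LATS1/2-KO, as they did for 14.6% of all genes tested. The 4 members were chosen by the test on these same libraries, so their separation is no separate evidence. Mrpl14 was called under every alternative run except the test against a 2-fold change, while the other 3 calls were lost under several. Groups of 3 libraries were not tested for outlying samples.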

How the results depend on the processing

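The medians of the Mrpl and Mrps genes stayed positive in all comparisons and alternatives run. Of the results for single members, 682 kept direction and side of the threshold, 44 lost a call, 11 gained one and 22 turned in sign. With GC offsets Mrpl38 turned from a call of lower, and Mrps15 and Mrps34 became calls of higher. The cause was not tested. For LATS1/2-KO against control, upper-quartile factors gave Mrps15 0.0082 and Mrps34 0.0016, and raw library sizes 0.033 and 0.027. GC offsets gave Mrpl10 0.0035, Mrpl14 0.22, Mrpl38 0.027, Mrps15 0.37, Mrps18a 0.21, Mrps21 0.057 and Mrps34 0.51. A test against a 2-fold change (glmTreat) left 4 higher and 0 lower members (1962 of 19357 genes higher, a larger share than of members), 16 and 0 for LATS1/2-Sox9-KO against control (2240 genes higher), and 0 higher between the deletions (18 genes). For LATS1/2-Sox9-KO against control, the 2 compared groups alone gave 2 lower members (5819 of 18199 genes lower). GC offsets gave 2 lower (5397 of 19357 genes) and a Mrps median of 0.77. Between the deletions, members higher were 13 by DESeq2 (1174 of 18604 genes), 1 with upper-quartile factors (495 of 19357), 1 with raw library sizes (420), 2 with the 2 groups alone (483 of 18251) and 8 with GC offsets (747).

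No clear pairing of libraries by replicate number was seen, with correlations of same-numbered deviations from -0.066 to 0.17. With 3 libraries in each group, these correlations cannot settle whether libraries shared a batch. With a replicate block 1 member was higher between the deletions (472 of 19357 genes). GC offsets with the replicate block gave 1 lower member in LATS1/2-KO (4909 of 19357 genes lower), with Mrpl14 at 0.20, Mrpl38 0.022, Mrps15 0.37, Mrps18a 0.20, Mrps21 0.055 and Mrps34 0.51. They gave 2 lower (5220 genes) and a Mrps median of 0.77 in LATS1/2-Sox9-KO, and 2 higher between the deletions (585 genes).

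Leaving out 1 library gave 48 to 56 higher and 2 to 5 lower members for LATS1/2-KO, 58 to 65 and 0 to 2 for LATS1/2-Sox9-KO, and 1 to 9 higher between the deletions. The counts over all 20053 to 20261 genes tested moved too. They were 4865 to 5760 higher and 4661 to 5505 lower, then 5040 to 6123 and 4703 to 6049, and 155 to 1012 higher between the deletions. Single members ranged from -0.10 to 0.0046 (Mrps15), -0.11 to 0.026 (Mrps34) and -0.16 to 0.0046 (Mrps6) for LATS1/2-KO and from -0.98 to 0.11 (Mrpl53) for LATS1/2-Sox9-KO. Depth limits Mrpl53 most, with at most 21.9 normalized counts.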

Other observations

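A list of genes for mitochondrial import, channels and chaperones was counted too. Of 15 import and chaperone genes, 10 were higher, 0 lower and 5 not called in libraries labelled LATS1/2-KO, where 28.7% of all genes tested were higher (median log2 fold change 0.84, beside 0.04 over all genes) and 12 and 0 in those labelled LATS1/2-Sox9-KO, where 29.3% of all genes were higher (median 1.01), by edgeR. Vdac3, an outer membrane channel, was the highest at log2 1.31, the chaperonin Hspd1 was at 1.03, and its partner Hspe1 was at 0.63 (adjusted p = 0.002), the lowest value called in libraries labelled LATS1/2-KO.

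Libraries of a group differed in the members together. The median deviation of the 78 members from the control mean was log2 0.53, 0.69 and 0.67 in the 3 libraries labelled LATS1/2-KO and 0.73, 0.82 and 0.85 in those labelled LATS1/2-Sox9-KO. Replicate 1 of the LATS1/2-KO group was the lowest of its group for 46 members, and replicate 2 the highest for 47.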
